A study of Rattus norvegicus with 6 samples.

Results

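The genes described here are the 10 that encode core enzymes of mitochondrial fatty acid beta-oxidation, namely Cpt2, Acadvl, Acadl, Acadm, Acads, Hadha, Hadhb, Hadh, Acaa2 and Decr1. They were chosen by name for their known function, with earlier results of these data known, and each was represented by its most abundant transcript row. All 10 of 10 were found among the 16499 gene symbols of the table, and all 10 were among the 9820 of 17221 transcript rows that passed the filter on low values (at least 1 CPM in both libraries of at least 1 group, CPM being reads scaled to a common library size).

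Polyadenylated RNA was sequenced from cultured fibroblast-like synovial cells, which grow attached to the flask from digested joint lining, of 2 female Wistar rats with collagen-induced arthritis, taken before any therapy. Cells of each rat were grown in 3 media, which gave 6 libraries and 2 per group. The FBS group had fetal bovine serum, the standard supplement. The MS− group had blood serum of untreated animals, and the MS+ group had blood serum of animals given 18 days of acupuncture, a mechanical stimulation by needle insertion and rotation. The age of the animals was not given in the labels. The number of serum donors was not given either, and the MS− samples were described in one label field as healthy rats and in the others as arthritic, so these values hold for the sera used. The study's methods also place the drawing of MS− serum before any therapy began, so the stimulation and the later time of the MS+ serum in the course of the disease cannot be told apart. Replicates were the 2 rats that gave the cells, and libraries with the same number shared a rat. The species of the serum and any other property in which FBS differed from the rat sera cannot be told apart in this design.

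Beta-oxidation shortens fatty acids by repeated cycles in the mitochondrial matrix. Long-chain fatty acids enter as acylcarnitines, are turned back into acyl-CoA by Cpt2, and are then oxidised by an acyl-CoA dehydrogenase, hydrated, oxidised again and cleaved to release acetyl-CoA. The dehydrogenases differ in the chain length they prefer, and the mitochondrial trifunctional protein, built from the alpha subunit Hadha and the beta subunit Hadhb, carries out the steps after the first oxidation on long chains. Fibroblasts express this pathway, and inherited defects of it are commonly diagnosed in cultured skin fibroblasts.

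The libraries held 5463316 to 5991889 reads in transcript rows, and 3 reads corresponded to 0.491 to 0.551 CPM. All 9 fibroblast markers had reads, with a summed level of 80450 to 87672 CPM in FBS, 62481 to 64794 in MS− and 70481 to 73465 in MS+, most of it collagen. Of 8 macrophage markers, 5 (Ptprc, Itgam, Cd163, Adgre1 and Lyz2) were at 0 in all 6 libraries, and the sum, mostly Cd14, was 13.8 to 14.6 CPM in FBS, 17.2 to 20.5 in MS− and 16.3 to 17.7 in MS+. The 6 adipocyte markers, with Cidec and Retn at 0, summed to 0.491 to 0.663 CPM in FBS, 0 to 1.99 in MS− and 1.44 to 1.65 in MS+, with at most 9 reads for any of them. Of the 3 endothelial markers found, Cdh5 was at 0 and the sum was at most 1.47 CPM. The 6 skeletal muscle markers summed to 940 to 1127 CPM in FBS, 774 to 923 in MS− and 1039 to 1210 in MS+, nearly all of it Acta1. The part of the lower fibroblast marker sum and the higher macrophage marker sum in the rat sera, and of the higher adipocyte marker sum in MS+, in the changes below was not tested. In bulk samples, fewer cells of a type and less RNA per cell cannot be told apart.

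Promoter sequences from RefSeq (assembly GRCr8), covering 250 bases before to 50 bases after the start of a gene, were matched for 7 of the 10 genes. Those of Acadl, Acaa2 and Decr1 were not matched. A pair of them is shown because the results below turn on Hadha, Hadhb and Acadvl. Hadha and Hadhb are transcribed away from each other from starts that lie 301 bases apart, so their windows share 200 bases (GRCr8 chr6:31907551-31907750, + strand, the strand of Hadha). Capitals mark CCGCCC, which is the box GGGCGG of Sp factors read on the other strand. The Acadvl sequence is the 100 bases before its start (GRCr8 chr10:55236706-55236805, − strand), with capitals on a pair of nuclear receptor half-sites AGGTCA in the same direction with 1 base between, which differ from the full repeat by 1 mismatch.
Hadha and Hadhb: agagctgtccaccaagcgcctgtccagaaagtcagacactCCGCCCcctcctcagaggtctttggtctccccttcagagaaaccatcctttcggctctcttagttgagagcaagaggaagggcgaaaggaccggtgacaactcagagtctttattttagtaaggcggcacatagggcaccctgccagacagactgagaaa
Acadvl: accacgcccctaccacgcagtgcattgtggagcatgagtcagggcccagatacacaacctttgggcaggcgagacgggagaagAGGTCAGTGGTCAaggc

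Over both strands, GGGCGG was found in 6 of the 7 windows (Acadm, Acads, Cpt2, Hadh, Hadha and Hadhb) and in 34.9% of all 27457 promoters of that length. The half-site AGGTCA was found in the windows of Acadvl and Hadhb, and in 15.7% of all. The same-direction repeat of that half-site with 1 base between, the kind of site bound by PPAR with RXR, was found without mismatch in 0 of the 7 and 0.0583% of all. With at most 1 mismatch it was found in Acadvl, starting at base -17, and in 0.463% of all. TCAAGGTCA, the kind of site bound by the estrogen related receptors, was found in 0 of the 7 and in 0.412% of all. The repeat and TCAAGGTCA both contain or resemble AGGTCA, so these matches overlap, and a match describes letters only.

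Compared with FBS, Acadl, Hadha and Acaa2 were higher in both rat sera by 0.73 to 1.14 on the log2 scale. Acadvl, for very long chains, was higher in MS+ as well. The medium-chain and short-chain dehydrogenases Acadm and Acads, the second trifunctional subunit Hadhb, and Hadh, Cpt2 and Decr1 were not called in either comparison by limma with Benjamini-Hochberg adjustment. Between MS+ and MS−, 0 of the 10 were called, beside 2 of all 9820 rows.

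**Figure D1:**
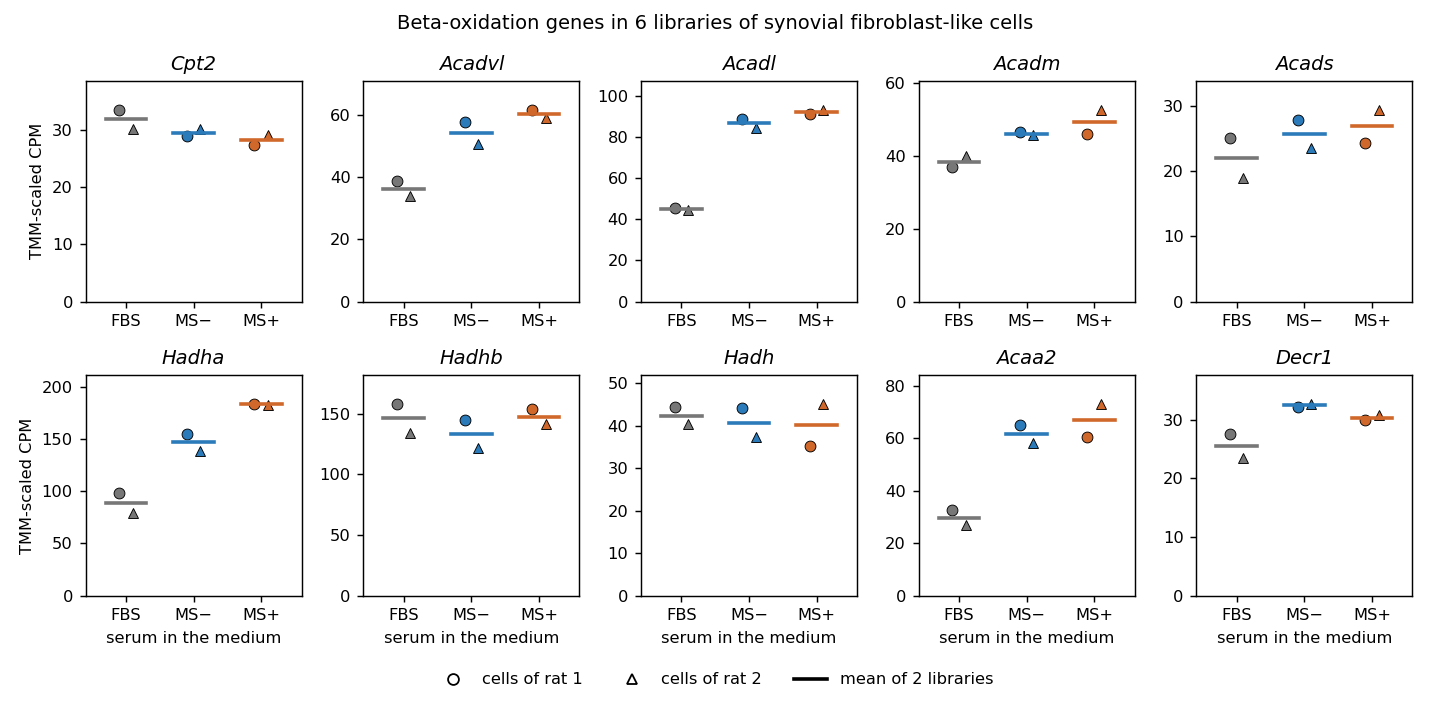
TMM-scaled CPM (vertical axes, each from 0) of the 10 genes in the 6 libraries, by serum (horizontal axes), with circles and triangles for the cells of rat 1 and rat 2 and a line at the mean of the 2 libraries. For Acadl, Hadha, Acaa2 and Acadvl both rat sera lie above FBS, while the points of Hadhb and Hadh overlap between all 3 groups.

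Cpt2, the inner membrane enzyme that hands long-chain acyl groups from carnitine back to coenzyme A, lies at rn4 chr5:129007685-129025501 on the − strand (NM_012930). Its level was 33.6 and 30.2 CPM in FBS, 28.9 and 30.2 in MS−, and 27.4 and 29.2 in MS+, where the first value of each pair is rat 1. The MS+ libraries lay below both FBS libraries, and the MS− libraries overlapped FBS. The log2 fold change over FBS was -0.17 (SE 0.12, limma adjusted p = 0.434) in MS+ and -0.10 (adjusted p = 0.686) in MS−.

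Acadvl, the dehydrogenase for very long chains, lies at rn4 chr10:56856233-56861380 on the − strand (NM_012891), and its span overlaps Mir324 on the other strand. It stood at 38.6 and 34.0 CPM in FBS, 57.8 and 50.6 in MS−, and 61.6 and 59.1 in MS+. All 4 rat-serum libraries exceeded both FBS libraries, and MS+ exceeded MS− in both. Acadvl was 0.72 higher on the log2 scale in MS+ than in FBS (SE 0.12, limma adjusted p = 0.0182). In MS− the difference was 0.57 (SE 0.12, limma adjusted p = 0.0510), and the adjusted p of limma was 0.00164 once the rat was entered as a block.

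Acadl, the long-chain dehydrogenase, lies at rn4 chr9:65613130-65651772 on the − strand (NM_012819). It had 45.5 and 44.8 CPM in FBS, 88.9 and 84.4 in MS−, and 91.0 and 93.2 in MS+. The FBS libraries were the low ones, with no overlap, and the 2 rats differed little within each serum. Acadl rose by 1.01 in MS+ (SE 0.09, limma adjusted p = 0.0042) and by 0.93 in MS− (SE 0.09, adjusted p = 0.0041), both on the log2 scale over FBS.

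Acadm, the medium-chain dehydrogenase, lies at rn4 chr2:251866643-251890814 on the − strand (NM_016986). Its CPM was 36.8 and 40.0 in FBS, 46.5 and 45.7 in MS−, and 46.1 and 52.7 in MS+. Both rat sera lay above FBS and overlapped each other. The log2 difference from FBS was 0.35 in MS+ (SE 0.12, limma adjusted p = 0.108, and 0.0299 with the block) and 0.26 in MS− (limma adjusted p = 0.265, and 0.129 with the block).

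Acads, the short-chain dehydrogenase, lies at rn4 chr12:42765284-42774528 on the + strand (NM_022512). It had 25.0 and 18.9 CPM in FBS, 27.8 and 23.5 in MS−, and 24.3 and 29.4 in MS+, so all 3 groups overlapped. The log2 difference from FBS was 0.28 in MS+ (SE 0.19, limma adjusted p = 0.370) and 0.22 in MS− (limma adjusted p = 0.546).

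Hadha, the alpha subunit of the trifunctional protein with the hydratase and dehydrogenase activities for long chains, had 2 rows in the table under 1 accession. The more abundant row, used here, lies on the unplaced sequence 6_random of rn4 at 452696 to 468313 on the + strand, and the other at rn4 chr6:26173798-26191434. The used row had 97.7 and 78.8 CPM in FBS, 154.8 and 138.6 in MS−, and 183.4 and 182.8 in MS+. The 3 groups did not overlap, with FBS lowest and MS+ highest. Hadha was higher than in FBS by 1.05 on the log2 scale in MS+ (SE 0.12, limma adjusted p = 0.0075) and by 0.73 in MS− (SE 0.12, limma adjusted p = 0.0261). The chromosome 6 row had 28.2 and 29.0 CPM in FBS, 48.1 and 45.7 in MS−, and 55.0 and 54.0 in MS+. Its log2 difference from FBS was 0.91 in MS+ (limma adjusted p = 0.00689) and 0.70 in MS− (limma adjusted p = 0.0168), so both rows were called in both comparisons. The used row took 73.1 to 77.6% of the Hadha reads in a library, and how reads that match both copies were placed is not given in the sources used here.

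Hadhb, the beta subunit with the thiolase activity, lies at rn4 chr6:26139397-26166947 on the − strand (NM_133618), 6850 bases from the chromosome 6 row of Hadha in that annotation. It had 158.0 and 134.3 CPM in FBS, 144.5 and 121.7 in MS−, and 153.7 and 141.1 in MS+. All 3 groups overlapped, and rat 1 was above rat 2 in each serum. The log2 difference from FBS was 0.016 in MS+ (SE 0.13, limma adjusted p = 0.950) and -0.13 in MS− (SE 0.13, limma adjusted p = 0.604).

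The reads of Hadha per read of Hadhb within a library, each in CPM and using the more abundant Hadha row, were 0.619 and 0.586 in FBS, 1.07 and 1.14 in MS−, and 1.19 and 1.30 in MS+. With both Hadha rows summed they were 0.797 and 0.802, 1.40 and 1.52, and 1.55 and 1.68. The ratio is not corrected for transcript length, so only its change between libraries can be read, and it was higher in all 4 rat-serum libraries than in both FBS libraries. The mean log2 ratio was 0.96 higher over the 4 rat-serum libraries than over the 2 FBS libraries. This ratio was chosen after its values were seen and is given without a test.

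**Figure D2:**
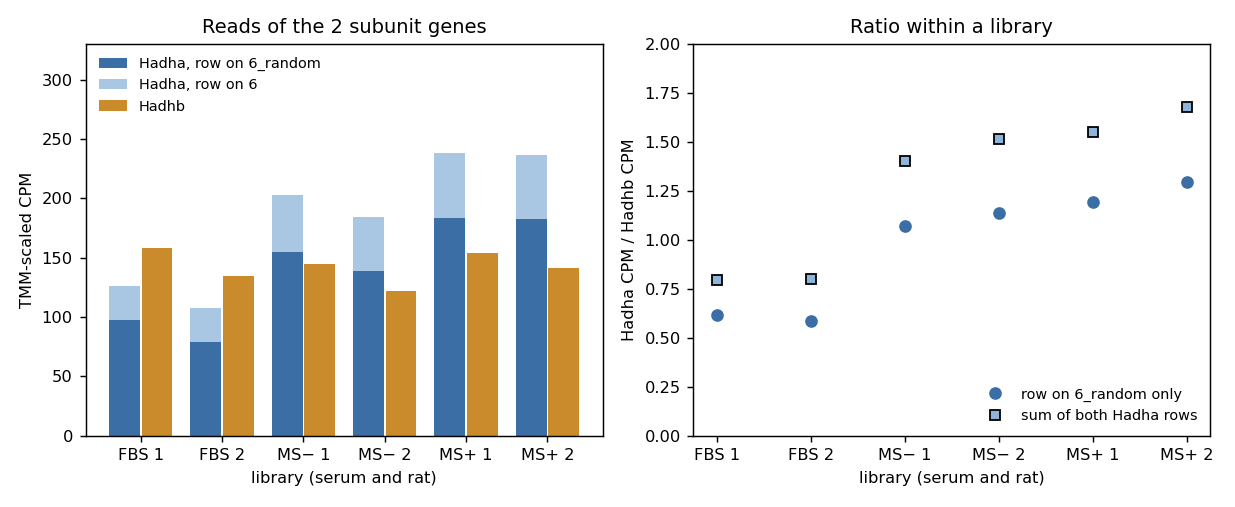
Left, TMM-scaled CPM of Hadha (its 2 rows stacked) and Hadhb in each library, and right, the ratio of Hadha to Hadhb CPM in the same library, for the more abundant row (circles) and for the sum of both rows (squares). Hadhb stays between 121.7 and 158.0 CPM, while the ratio moves from 0.586 and 0.619 in FBS to 1.07 or more in the rat sera.

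Hadh, the 3-hydroxyacyl-CoA dehydrogenase for medium and short chains, lies at rn4 chr2:228698545-228751691 on the − strand (NM_057186). It had 44.4 and 40.5 CPM in FBS, 44.1 and 37.2 in MS−, and 35.1 and 45.1 in MS+. The groups overlapped, and the 2 MS+ libraries held both the lowest and the highest value of Hadh. The log2 difference from FBS was -0.09 in MS+ (SE 0.16, limma adjusted p = 0.765) and -0.06 in MS− (limma adjusted p = 0.868).

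Acaa2, the thiolase that releases acetyl-CoA at the end of the cycle on medium and shorter chains, lies at rn4 chr18:71587259-71632610 on the + strand (NM_130433). It had 32.6 and 26.9 CPM in FBS, 65.1 and 58.2 in MS−, and 60.5 and 73.0 in MS+. The FBS libraries were far below the other 4, and MS− and MS+ overlapped. Acaa2 rose by 1.14 in MS+ (SE 0.15, limma adjusted p = 0.0086) and by 1.03 in MS− (SE 0.15, limma adjusted p = 0.0143) on the log2 scale over FBS.

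Decr1, the reductase needed for fatty acids with certain double bonds, lies at rn4 chr5:30492186-30520206 on the − strand (NM_057197). It had 27.7 and 23.5 CPM in FBS, 32.2 and 32.7 in MS−, and 29.9 and 30.8 in MS+. Both rat sera lay above FBS, and MS+ below MS−. The log2 difference from FBS was 0.24 in MS+ (SE 0.13, limma adjusted p = 0.277) and 0.34 in MS− (SE 0.13, limma adjusted p = 0.201, and 0.0908 with the rat as a block).

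The comparison of MS+ with FBS addressed what serum of stimulated animals does beside the standard medium. By limma with Benjamini-Hochberg adjustment over all 9820 rows, 4 of the 10 genes rose (Acadvl, Acadl, Hadha and Acaa2), where 4.95% of all rows were called higher, and 0 fell, where 4.66% were called lower. With the rat as a block, 5 rose, with Acadm added, beside 14.4% of all rows. A second rule, which asks for at least a 2-fold difference at an unadjusted p below 0.05 with an average of 1 CPM or above, was met by 3 genes (Acadl, Hadha and Acaa2), beside 2.37% of all rows higher. The MS+ libraries lay above both FBS libraries in 6 of the 10 and below in 1, beside 28.4% and 28.3% of all rows. The median log2 fold change was 0.32 over the 10 genes and 0.00 over all rows. Without the MS+ library of rat 1 the limma count was 0, with adjusted p of 0.0540 for Acadl, 0.0550 for Acaa2, 0.0627 for Hadha and 0.116 for Acadvl. Without the MS+ library of rat 2 it was 1 (Acadl), and without either FBS library it was 3, Acadvl being lost. Over all rows, the calls in both directions fell from 944 to 19 without the MS+ library of rat 1, to 143 without that of rat 2, and to 145 and 244 without the FBS library of rat 1 and of rat 2.

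The comparison of MS− with FBS addressed the same for serum of untreated animals, and it shares the FBS libraries with the one above. By limma with Benjamini-Hochberg adjustment 3 genes rose (Acadl, Hadha and Acaa2), beside 2.09% of all rows, and 0 fell, beside 2.72%. With the rat as a block 4 rose, with Acadvl added, beside 10.8%. The 2-fold rule was met by 1 gene, Acaa2, beside 1.24% of all rows. MS− lay above FBS without overlap in 6 of the 10, beside 27.1% of all rows. The median log2 fold change was 0.30, and 0.01 over all rows. The limma count was 1 (Acadl) without the FBS library of rat 2 or without either MS− library, and 2 (Acadl and Acaa2, or Acadl and Hadha) without 1 of the other libraries. Over all rows, the calls fell from 472 to 174 without the FBS library of rat 2, to 110 and 125 without the MS− library of rat 1 and of rat 2, and to 89 to 278 without 1 of the others.

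MS+ was set against MS− to ask how serum of stimulated animals differs in its effect from serum drawn without stimulation. By limma, 0 of the 10 genes passed the adjusted threshold in either direction, beside 0.0102% of all rows higher and 0.0102% lower. At an unadjusted p under 0.05 there was 1 (Hadha), beside 1446 of all 9820 rows. By edgeR, DESeq2 and limma-voom on the recovered reads the count was also 0. The log2 difference of Hadha was 0.32 (SE 0.12, limma adjusted p = 0.308), made of 0.24 in rat 1 and 0.40 in rat 2. With the rat as a block, Hadha was the 1 gene called (limma adjusted p of 0.0415), beside 5.27% of all rows called higher. The chromosome 6 row of Hadha gave 0.21 (limma adjusted p = 0.422) without the block.

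For the other 9 genes the log2 difference between MS+ and MS− lay between -0.09 (Decr1) and 0.16 (Acadvl, SE 0.12). MS+ was above MS− without overlap for Acadvl, Acadl and Hadha and below for Decr1, beside 22.6% and 23.1% of all rows. The 2 rats went opposite ways for 4 genes. The difference of Hadh was -0.32 in rat 1 and 0.27 in rat 2, that of Acaa2 -0.10 and 0.32, that of Acads -0.19 and 0.31, and that of Acadm -0.010 and 0.20. The median over the 10 genes was 0.09, and -0.01 over all rows.

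**Figure D3:**
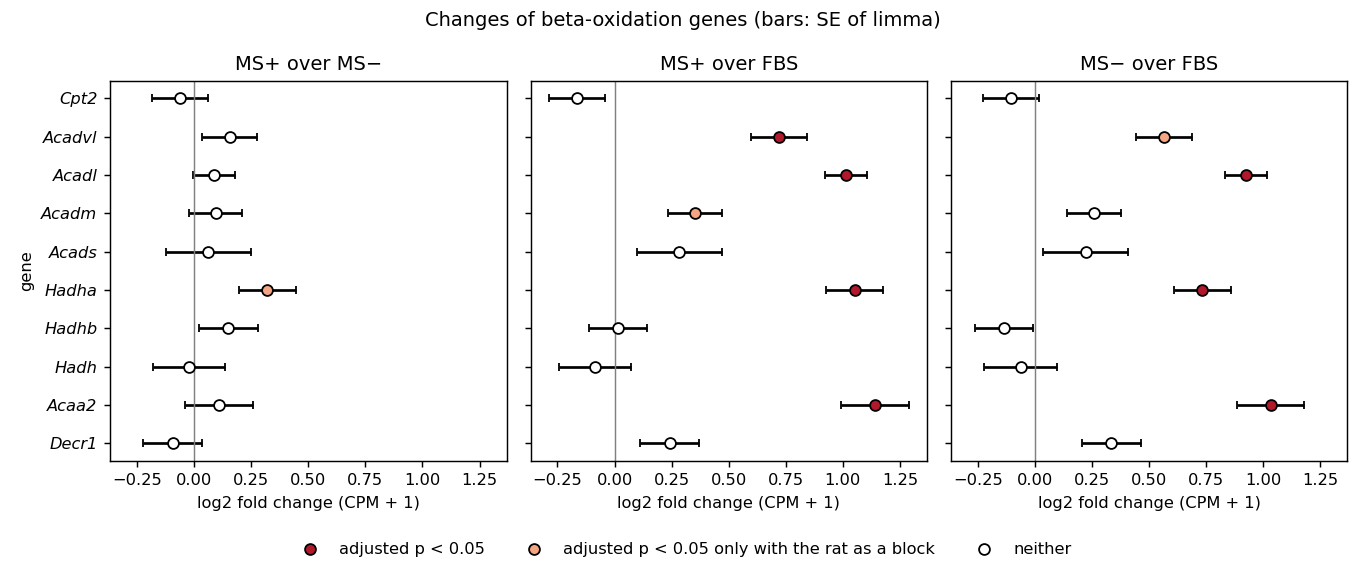
Log2 fold change on the log2(CPM + 1) scale (horizontal axes) of the 10 genes in the 3 comparisons, with bars for the SE from limma; filled points passed an adjusted p of 0.05, and pale points passed it only with the rat as a block. Acadl, Hadha and Acaa2 stand apart to the right in both comparisons with FBS, while between MS+ and MS− all 10 lie between -0.09 and 0.32.

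Summed over the 10 genes, the level was 540 and 472 CPM in FBS, 691 and 623 in MS−, and 713 and 737 in MS+, or 0.0480 to 0.0734% of the reads of a library. The sum was lowest in both FBS libraries, and that of MS+ lay above that of MS−. With each gene weighted equally, the mean log2 level of the 10 genes, centred on each gene's mean over the 6 libraries, was -0.19 and -0.37 in FBS, 0.16 and 0.037 in MS−, and 0.13 and 0.23 in MS+, so that the rat sera overlapped on this scale.

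Of 14 genes for the entry of fatty acids into mitochondria, 12 were tested. By limma 3 rose and 1 fell in MS+ against FBS, beside 4.95% of all rows higher and 4.66% lower. In MS−, 2 rose and 0 fell, beside 2.09% higher and 2.72% lower. Cpt1a, the outer membrane carnitine palmitoyltransferase that controls entry and acts before Cpt2, had 17.7 and 19.9 CPM in FBS, 114.9 and 124.0 in MS−, and 128.8 and 144.1 in MS+. It had no overlap between FBS and the rat sera, and it was higher by 2.80 in MS+ (SE 0.11, limma adjusted p = 0.000298) and by 2.61 in MS− (SE 0.11, limma adjusted p = 0.00096) on the log2 scale. Cpt1c, a brain-type relative found in the endoplasmic reticulum, was higher by 0.65 in MS+ (limma adjusted p = 0.0442) and by 0.71 in MS− (limma adjusted p = 0.0493, from 0.000618 to 0.248 over the alternatives). Fabp3, the heart-type fatty acid binding protein, had 90.2 and 48.7 CPM in FBS, 33.8 and 23.5 in MS−, and 20.4 and 15.4 in MS+. Fabp3 fell by 1.85 on the log2 scale in MS+ (limma adjusted p = 0.0182), and its difference in MS− was -1.20 (limma adjusted p = 0.0857, and 1.51e-05 with the block). The 2 FBS libraries of Fabp3 stood apart from each other, and the call in MS+ was lost without the FBS library of rat 1 (limma adjusted p = 0.0755) or without either MS+ library.

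The acyl-CoA dehydrogenases pass electrons to the flavoprotein Etfa and Etfb and from there to Etfdh, which reduces ubiquinone. Of these 3, 1 (Etfdh) rose in each comparison with FBS, beside 4.95% of all rows in MS+ and 2.09% in MS−. Etfdh had 35.9 and 37.0 CPM in FBS, 54.3 and 52.8 in MS−, and 64.5 and 61.3 in MS+, without overlap. The log2 differences of Etfdh from FBS were 0.77 in MS+ (limma adjusted p = 0.00885) and 0.54 in MS− (limma adjusted p = 0.0327). The call of Etfdh in MS− was lost when any 1 of the 6 libraries was left out, and with DESeq2 on all 6 (adjusted p = 0.0531). In MS+ it was lost without the FBS library of rat 1 or without either MS+ library, with a highest adjusted p of 0.0771. In MS+ against MS−, where none of the 3 was called, the difference of Etfa, named as the gene with the highest CPM, was -0.14 (limma adjusted p = 0.664).

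Of 14 other mitochondrial acyl-CoA enzymes, 12 were found and tested, 2 rose in MS+ and 1 in MS− against FBS, and 0 fell. Of all rows, 4.95% rose in MS+ and 2.09% in MS−, and 4.66% and 2.72% fell. Acot2, a thioesterase that frees fatty acids from coenzyme A in the matrix, had 15.6 and 10.4 CPM in FBS, 32.9 and 28.2 in MS−, and 70.4 and 51.9 in MS+. The 3 groups of Acot2 did not overlap, and the log2 difference from FBS was 2.16 in MS+ (limma adjusted p = 0.00526) and 1.19 in MS− (limma adjusted p = 0.0343). Between MS+ and MS− Acot2 differed by 0.97 (limma adjusted p = 0.156, and 0.000406 with the rat as a block). Acot2 has close relatives among the thioesterases, and reads shared with them are uncertain. Its call was lost in MS+ without the MS+ library of rat 1. In MS− the call of Acot2 was lost when any 1 of the 6 libraries was left out, and on all 6 without a filter (limma adjusted p = 0.0757). Hsd17b10, a short-chain dehydrogenase with several substrates, was 0.53 higher in MS+ (limma adjusted p = 0.0349). This call was lost when any 1 of the 6 libraries was left out, and on all 6 without a filter (limma adjusted p = 0.0516).

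Of 16 peroxisomal beta-oxidation genes, 13 were tested, and 3 rose in MS+ and 1 in MS− against FBS, with 0 lower. Of all rows, 4.95% rose in MS+ and 2.09% in MS−, and 4.66% and 2.72% fell. Ech1, an isomerase of dienoyl-CoA found in peroxisomes and mitochondria, had 28.6 and 24.0 CPM in FBS, 73.2 and 81.3 in MS−, and 78.2 and 85.3 in MS+. Ech1 was higher by 1.60 in MS+ (limma adjusted p = 0.00314) and 1.52 in MS− (limma adjusted p = 0.00239), with FBS far below the other libraries. Acad11, a further member of the acyl-CoA dehydrogenase family, was 0.83 higher in MS+ (limma adjusted p = 0.0458). This call was lost when any 1 of the 6 libraries was left out. On all 6 it was lost without a filter (limma adjusted p = 0.0819) and with library totals (limma adjusted p = 0.0526).

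Of 15 regulators and PPAR targets, 11 were tested, and 2 rose against FBS in both MS+ and MS−, Angptl4 and Pdk4, with 0 lower. Of all rows, 4.95% rose in MS+ and 2.09% in MS−, and 4.66% and 2.72% fell. With the block, limma called 4 higher and 1 lower in MS+ and 5 higher in MS−. Over all 9820 rows, the block gave 2773 calls in MS+ and 2011 in MS− in both directions, with 14.4% and 10.8% of rows higher. The log2 difference of Pdk4, which restrains pyruvate oxidation, was 3.92 in MS+ (limma adjusted p = 0.000298) and 2.65 in MS− (limma adjusted p = 0.00185), and that of Angptl4, an inhibitor of lipoprotein lipase, was 4.34 (limma adjusted p = 0.000713) and 3.80 (limma adjusted p = 0.00185). Mean CPM in FBS, MS− and MS+ was 1.73, 16.2 and 40.2 for Pdk4, and 0.494, 19.9 and 29.6 for Angptl4. The FBS level of Angptl4 was about 3 reads, so the size of its change depends on the 1 CPM added before the log.

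Of 17 citric acid cycle genes, 16 were tested, and 1 (Dld, a subunit shared by several dehydrogenase complexes) rose in MS+ by 0.45 (limma adjusted p = 0.0441), beside 4.95% of all rows. This call was lost when any 1 of the 6 libraries was left out. On all 6 it was lost with DESeq2 (adjusted p = 0.0594), without a filter (limma adjusted p = 0.0608) and with library totals (limma adjusted p = 0.0618). In MS−, 0 were called, beside 2.09% of all rows higher and 2.72% lower. There, 2 had an unadjusted p under 0.05, beside 2074 of all 9820 rows. Limma with the block called 1 higher and 1 lower, beside 2011 of all rows in both directions. Of 14 genes for mitochondrial content, such as import and chaperone proteins, 1 (Tomm20, a receptor of the import pore) rose in MS+ by 0.63 (limma adjusted p = 0.0154), beside 4.95% of all rows. This call was lost when any 1 of the FBS or MS+ libraries was left out. In MS−, 0 were called. There, 4 had an unadjusted p under 0.05, beside the same 2074 of all rows. Limma with the block called 3, all lower, beside the same 2011 in both directions. In MS+ against FBS the block gave 1 higher and 2 lower, beside 2773 of all rows in both directions. Of the 14 genes, 11 lay below 0 and 3 above in each comparison with FBS. The medians of the mitochondrial content list were -0.17 in MS+ and -0.15 in MS− against FBS, and those of the citric acid cycle 0.11 and 0.00, set beside 0.32 and 0.30 for the 10 beta-oxidation genes. They were 0.33 and 0.29 for the regulators and PPAR targets, 0.21 and 0.16 for the entry genes, 0.15 and 0.13 for electron transfer, 0.12 and 0.12 for the other acyl-CoA enzymes, and 0.06 and 0.16 for the peroxisomal genes. Between MS+ and MS−, 0 genes of any of these 7 lists were called by limma without the block, beside 2 of all 9820 rows. The largest log2 difference among them was 1.26, for Pdk4, with a mean CPM of 40.2 in MS+ and 16.2 in MS−. An unadjusted p under 0.05 was reached by 1 entry gene and by 2 genes each of the other acyl-CoA, regulator and mitochondrial content lists, beside 1446 of all 9820 rows. Limma with the block called 1 gene in each of these 4 lists, beside 987 of all 9820 rows. That gene was lower in the entry list and higher in the others. Over MS−, the log2 difference of the gene with the highest CPM in each list was -0.03 for Crat, 0.34 for Hsd17b10, 0.11 for Scp2, 0.09 for Ppard and 0.21 for Hspa9. In MS− against FBS, where none of the mitochondrial content list was called, Hspa9 differed by -0.33 (limma adjusted p = 0.223, and 0.0169 with the rat as a block).

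**Figure D4:**
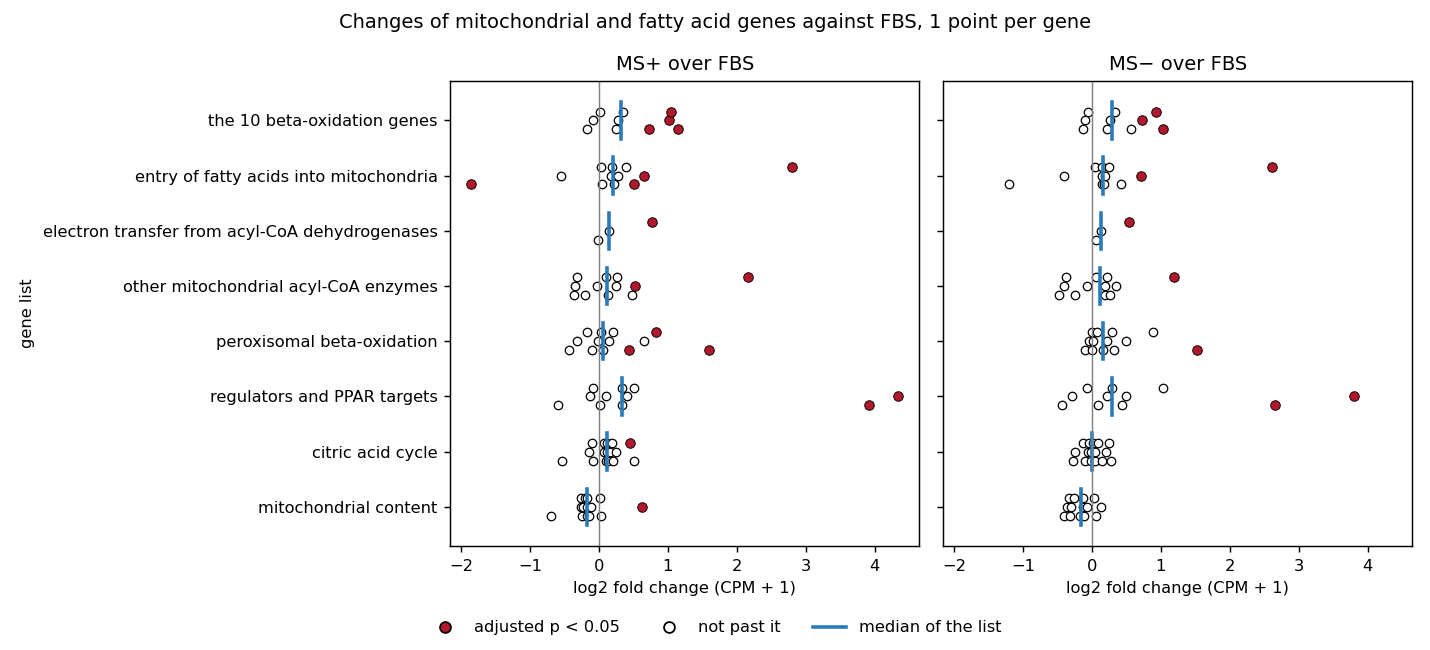
Log2 fold change against FBS on the log2(CPM + 1) scale (horizontal axes) of every tested gene of the 8 lists (rows), for MS+ and MS−, with red points past an adjusted p of 0.05 and a blue line at the median of each list. Medians lie between -0.17 and 0.33, and single genes such as Cpt1a at 2.80 and 2.61 stand far from the rest of their list.

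The 5 genes outside the 10 whose profile over the 6 libraries was nearest to the mean profile of the 10, among 7249 genes at a mean of 10 CPM or more, were Gatc, Brp44l, Gpank1, Smpd1 and Sfmbt1. The root mean square difference on the log2 scale was 0.037 for Gatc, a subunit of the mitochondrial glutaminyl-tRNA amidotransferase, and 0.047 for Brp44l, listed as Mpc1 in a newer RefSeq table and a subunit of the mitochondrial pyruvate carrier. It was 0.047 for Gpank1, 0.052 for Smpd1, the lysosomal sphingomyelinase, and 0.053 for Sfmbt1. The 10 genes themselves lay 0.10 (Decr1) to 0.32 (Acaa2) from their own mean profile. The 5 were picked as the nearest of 7249, so their smaller distances follow from that choice. Brp44l had 55.5 and 50.2 CPM in FBS, 75.9 and 70.5 in MS−, and 75.3 and 81.5 in MS+.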

How the data were processed

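Poly(A)-selected RNA was sequenced from 6 cultures, and the submitters' processing notes name Bowtie2 2.1.0, HTSeq 0.5.4p3 and the rn4 build. Per the study's methods, reads were counted per transcript in intersection-nonempty mode and the authors scaled them to CPM by TMM. Bowtie2 does not split reads over introns, and whether counting used strand is not given in the sources used here. The deposited values are this signal, TMM-scaled CPM, whose columns need not share 1 total, and 100% of them came out as whole reads (tolerance 1e-06 reads). From them, log2(CPM + 1) was tested with limma 3.58.1 (R 4.3.3; trend, two-sided) on all 6 libraries with serum as the only term, on rows at 1 CPM or more in both libraries of at least 1 group, with Benjamini-Hochberg adjustment over all rows at a threshold of 0.05. Fold changes on this scale understate low genes. Recovered reads were tested with edgeR 4.0.16, DESeq2 1.42.0 and limma-voom. The fits were also run on simulated counts. Those held no rat effect, so they cannot show how the fits behave with the rat differences described below. The 2 libraries of a group differed by more than sampling noise (chi-square per degree of freedom 14.3 to 15.9).

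The labels give the same rat in each group, and the rat 2 minus rat 1 differences correlated across rows (r = 0.49 to 0.62), so the rat was also fitted as a block. The thresholds of the study's methods (the 2-fold rule in the text) were applied to the limma fit. Their mean CPM condition, stated in the study's methods, was added after the results were seen. The members and lists were chosen with earlier results of these data known. Named were all 10 members, from each other list at most the 2 called genes with the largest change per comparison or else the one with the highest mean CPM, and the 5 nearest profiles. Alternatives tried were these tools, the block, other pseudocounts, filters and scalings, summed rows of a symbol, and leaving out each library. CPM is not corrected for transcript length, so a highest CPM served only to choose a gene or row to name and ranks no levels, and positions are spans without exons. The floor of 3 reads covers counting error only, and SE values come from the spread between libraries in the limma fit. Some items are not reported here.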

Additional observations from a re-analysis of the deposited data

How the results depend on the processing

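Over the 10 genes and 3 comparisons, 476 values kept their direction and side of the threshold, 19 lost a call, 7 gained one and 11 changed sign, none of them called. Between MS+ and MS−, the count of 0 called genes became 1 (Hadha) with the replicate block, in limma and in edgeR (adjusted p = 0.0315), the latter chosen after seeing the data. Leaving out each library gave 0 to 0 there, 0 to 4 for MS+ against FBS and 1 to 2 for MS− against FBS, and medians of -0.01 to 0.15, 0.24 to 0.43 and 0.27 to 0.43. In those fits the lone library is assumed to vary like the other groups. Other settings gave 4 to 5 for MS+ and 2 to 4 for MS−, where Hadha was lost without a filter (adjusted p = 0.0547) and Acadvl was gained at a filter of 5 CPM (adjusted p = 0.0457). Beside the calls of Acadm, Acadvl and Hadha given above, the block changed no other call among the 10. Leaving out single libraries changed signs between MS+ and MS− for Hadh (-0.20 to 0.15, positive without replicate 1 of either), Acads (-0.069 to 0.19, negative without replicate 2 of either) and Acaa2 (-0.024 to 0.24, negative without MS+ replicate 2). Against FBS it did so in MS+ for Hadhb (-0.10 to 0.13, negative without FBS replicate 2 or MS+ replicate 1, and -0.033 with library totals) and Hadh (-0.26 to 0.090, positive without MS+ replicate 1), and in MS− for Hadh (-0.18 to 0.056, positive without FBS replicate 1 or MS− replicate 2). The cause was not tested. Over all rows, limma called 2, 944 and 472 in the 3 comparisons, 987, 2773 and 2011 with the block, and 0, 586 and 255 without a filter, and leaving out a library gave 0, 19 to 599 and 89 to 278, while DESeq2 called 123 between MS+ and MS−. With 2 libraries a group, a missed threshold does not show that levels were alike.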
